A study of Homo sapiens with 9 samples.

Results

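The genes described here encode the pore-forming and auxiliary subunits of sodium, calcium and potassium channels, together with the CLC chloride channels and transporters. They were found by name in the deposited expression table, as every feature named SCN, KCN, CACN (A, B or G) or CLCN with a subunit suffix, without antisense names. The rule found 145 of 57773 features. Of these, 48 had a mean signal of at least 10 over the 9 libraries and were tested, 64 were detected in at least 1 library below that level, and 33 were at 0 in every library. The cells were ACHN, an established human line from a renal cell carcinoma, edited with CRISPR/Cas9 at ELOVL5, the gene of an elongase of polyunsaturated fatty acids. The series asks how ELOVL5 bears on proliferation and invasion of such cancer cells. RNA was sequenced from cells with a control guide (sgControl), from cells with the first ELOVL5 guide (KO#1) and from cells with the second (KO#2), with 3 libraries per group. All 3 groups are ACHN cells that received a single guide RNA, with no drug or time given. The labels do not state whether the knockout cells were single clones or pools, nor whether the replicates were separate cultures, so the p-values cover only the spread between these libraries.

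Sodium, calcium and potassium channels open or close with membrane voltage, with calcium inside the cell or with metabolites, and so set the membrane potential and the entry of calcium. In epithelial cells, which fire no action potentials, potassium channels hold the potential that drives other transport, and channels of all these families have been found in carcinoma lines. CLC proteins are chloride channels of the plasma membrane or chloride/proton exchangers of endosomes and lysosomes. Auxiliary subunits have no pore of their own and set the trafficking and gating of the subunits that do.

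The RefSeq promoters (GRCh38.p14) of 4 genes the results turn on are shown because they cover both directions: SCN9A was lower in the knockout cells, CLCN7 was detected above trace level with KO#2, and KCNN4 and KCNJ8 were higher with both guides. Each runs 5′ to 3′ from 250 bases before to 50 bases after the transcription start, on the minus strand, with CG dinucleotides in capitals. The windows lie at chr2:166375895-166376194 for SCN9A, chr16:1474979-1475278 for CLCN7, chr19:43780924-43781223 for KCNN4 and chr12:21774657-21774956 for KCNJ8.
SCN9A: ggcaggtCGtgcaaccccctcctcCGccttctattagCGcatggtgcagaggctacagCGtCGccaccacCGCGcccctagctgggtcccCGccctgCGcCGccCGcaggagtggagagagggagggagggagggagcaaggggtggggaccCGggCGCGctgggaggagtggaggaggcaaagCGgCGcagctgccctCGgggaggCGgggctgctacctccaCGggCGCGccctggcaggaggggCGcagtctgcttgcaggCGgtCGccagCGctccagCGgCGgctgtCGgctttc
CLCN7: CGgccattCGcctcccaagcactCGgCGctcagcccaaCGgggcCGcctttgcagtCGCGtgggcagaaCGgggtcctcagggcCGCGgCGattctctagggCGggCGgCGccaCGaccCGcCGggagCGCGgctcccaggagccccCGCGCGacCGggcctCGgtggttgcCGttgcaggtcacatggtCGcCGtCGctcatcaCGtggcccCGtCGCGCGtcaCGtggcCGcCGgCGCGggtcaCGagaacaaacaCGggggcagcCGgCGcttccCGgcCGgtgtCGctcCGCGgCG
KCNN4: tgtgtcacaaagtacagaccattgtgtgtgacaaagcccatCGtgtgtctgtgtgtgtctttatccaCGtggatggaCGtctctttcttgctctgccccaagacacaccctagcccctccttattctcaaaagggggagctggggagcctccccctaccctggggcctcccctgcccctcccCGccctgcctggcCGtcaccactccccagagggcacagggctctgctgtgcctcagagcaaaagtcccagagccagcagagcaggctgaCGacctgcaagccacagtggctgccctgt
KCNJ8: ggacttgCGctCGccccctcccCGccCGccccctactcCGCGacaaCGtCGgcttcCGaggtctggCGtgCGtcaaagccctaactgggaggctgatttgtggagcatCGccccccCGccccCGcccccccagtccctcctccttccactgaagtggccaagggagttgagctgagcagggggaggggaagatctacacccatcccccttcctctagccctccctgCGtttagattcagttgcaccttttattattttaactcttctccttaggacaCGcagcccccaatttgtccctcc
The CLCN7 window holds 49 CG dinucleotides, a number that 98.7% of the 35116 promoters in the RefSeq table do not exceed. SCN9A has 28 and KCNJ8 has 16, which 75.8% and 54.0% of promoters do not exceed. The KCNN4 window has 6, against a median of 14 over the table. RefSeq promoters were found for 104 of the 145 genes, 159 windows in all with a median of 16 CG dinucleotides. GGGCGG, searched on both strands with overlaps counted, was found 2 times for SCN9A, 2 for CLCN7, 1 for KCNN4 and 4 for KCNJ8. It was in 51.6% of the members' promoters and 45.0% of all promoters. TATAAA, searched in the same way, was in none of the 4 windows, in 8.2% of the members' promoters and in 11.5% of all. No methylation or binding was measured, so these are descriptions of the reference sequence.

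The deposited values are read counts per gene after quantile normalization by the authors, called signal here, with the same total of 8625043.6 in every library. The targeted gene ELOVL5 had a signal of 1999, 2713 and 2063 in sgControl, of 805, 1345 and 1016 with KO#1 and of 434, 1805 and 910.1 with KO#2. All 6 knockout libraries were below all sgControl libraries, but limma's adjusted p over all tested genes (Benjamini-Hochberg) was 0.383 and 0.240. KO#2 replicate 1 stood apart from every other library. It correlated across genes with its own group at 0.672 and 0.737, against at least 0.937 for all other pairs within a group, and 10257 features in it had at least 10 reads, against 12421 to 13254 elsewhere. Results are therefore given with and without it. Of 8 renal epithelial markers, 6 had a signal of at least 10 in every library (PAX8, PAX2, KRT8, KRT18, KRT19 and CDH2), whereas LRP2, a receptor of the proximal tubule, was at 0 in all. Of 7 neuronal markers found in the table, STMN2, GAP43 and ELAVL4 were at 0 in every library. SYT1 had 126, 117 and 82.2 in sgControl, 66.7, 85.4 and 137 with KO#1 and 115, 125 and 196 with KO#2. MAP2 had 20.7, 42.1 and 57 in sgControl, 107, 27.6 and 67.3 with KO#1 and 7.78, 42.6 and 69.9 with KO#2. The summed signal of the neuronal list was 143 to 162 in sgControl, 118 to 206 with KO#1 and 131 to 269.6 with KO#2. In bulk RNA of this kind, fewer cells that express a gene and less of its RNA in each cell cannot be told apart.

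Among the channel genes, CACNG7, KCNN4, KCNJ8 and KCNV1 rose with both guides. With KO#1, CACNA1H also fell. With KO#2, CLCN7 also rose and SCN9A also fell. A gene was called at a limma adjusted p under 0.05, Benjamini-Hochberg over the 12985 features tested, and all fold changes are on the log2(signal + 1) scale, which understates the change of low genes. By that rule 8 of the 48 tested channel genes (16.7%) were called with KO#1, 4 higher and 4 lower. Of all tested features 2.33% were called with KO#1, 1.36% higher and 0.97% lower. With KO#2 7 channel genes (14.6%) were called, 5 higher and 2 lower, against 2.04% of all features, 1.17% higher and 0.87% lower. In the mean of both guides 10 (20.8%) were called, 5 higher and 5 lower, against 3.1% of all features, 1.65% higher and 1.46% lower. The 5 channel genes called alike with both guides compare with 1.38% of all tested features, and KCNS3 was called in the mean of both and with neither guide alone. CACNG7, KCNV1 and KCNJ8, and CLCN7 with KO#2, entered the test only through their knockout libraries, so they had to differ, and the shares above include them. The comparisons share the sgControl libraries and are not independent of each other.

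**Figure D1:**
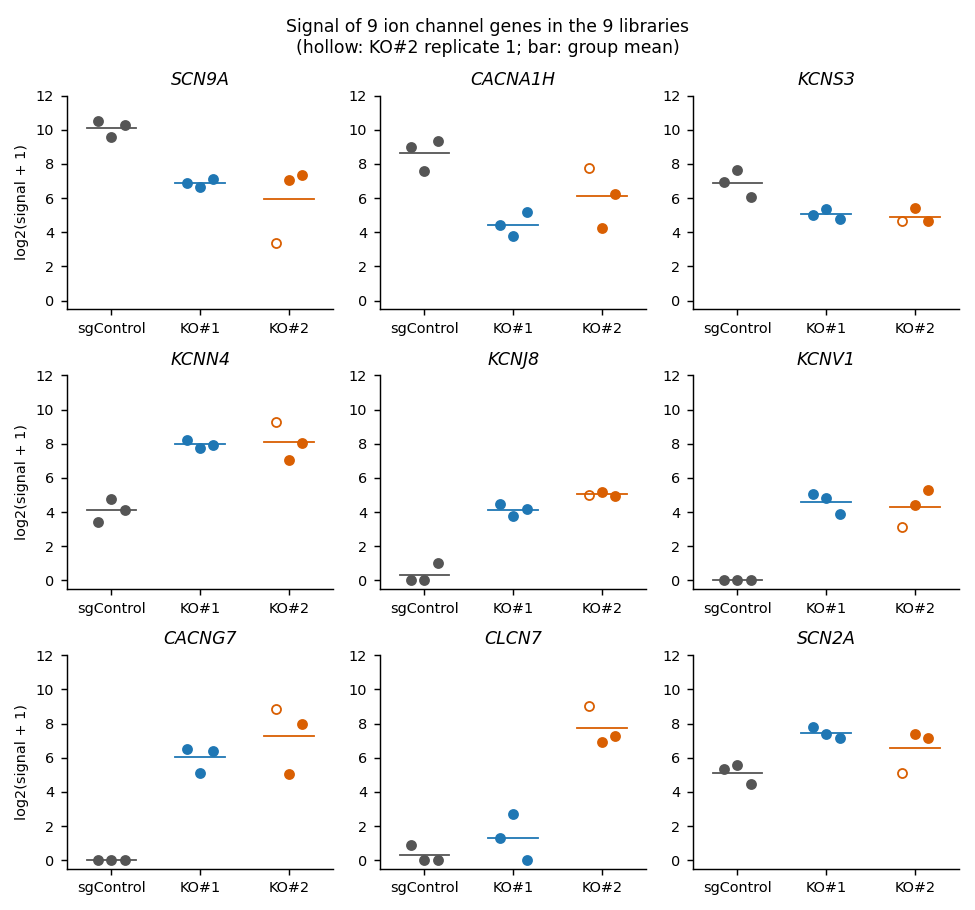
Signal of 9 channel genes in each library as log2(signal + 1), grouped as sgControl, KO#1 and KO#2, with points for libraries, bars for group means and hollow points for KO#2 replicate 1. SCN9A lies highest in sgControl, KCNN4 highest in the knockout cells, and CLCN7 is above trace level only in the 3 KO#2 libraries.

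The median log2 fold change of the 48 genes was -0.36 with KO#1, where 15 were above 0 and 33 below, against a median of 0.03 over all tested features. It was -0.09 with KO#2, with 24 above and 24 below, against -0.01 for all features. Of the 15 tested voltage-gated potassium channel genes, 13 were below 0 with KO#1 and 8 with KO#2. Of all 12985 tested features 6163 and 6554 were below 0. Without KO#2 replicate 1 more genes passed the test throughout the table. Channel genes called were then 17 (35.4%) with KO#1, against 12.3% of all features, and 18 (37.5%) with KO#2, against 8.02%. In that fit 13 channel genes were called alike with both guides, against 6.15% of all tested features. SCN2A joined those that were higher, and those that were lower included SCN9A, SCN8A, CACNA1H, KCNS3, KCNG3 and KCNH4. Of these, KCNH4 entered the test only through sgControl and KO#2 replicate 1, so it had to be lower in that fit.

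**Figure D2:**
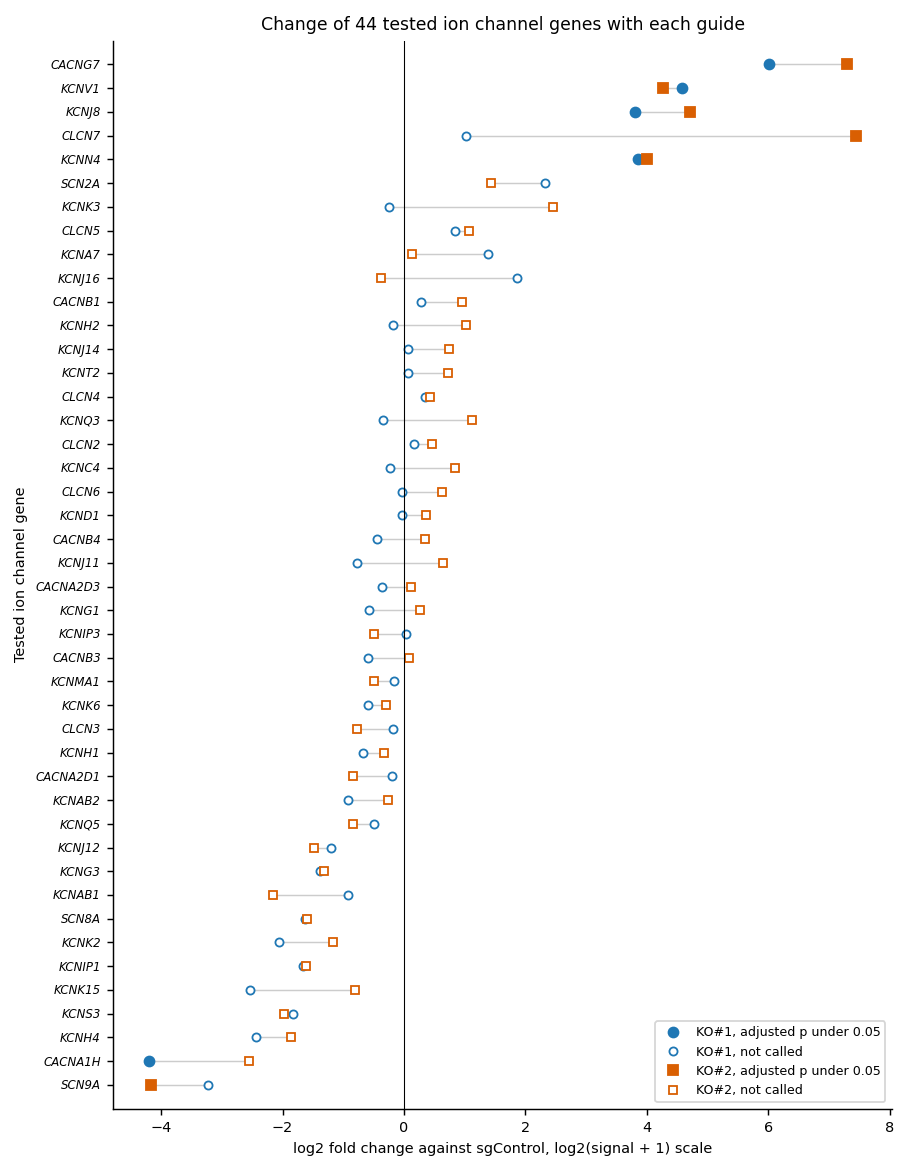
Log2 fold change against sgControl of 44 of the 48 tested channel genes on the log2(signal + 1) scale, with circles for KO#1, squares for KO#2, filled where the adjusted p was under 0.05 with all libraries. Most KO#1 circles lie left of 0, and over all 48 genes their median is -0.36; CLCN7 has the widest gap between the guides.

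Per kilobase of exon, the most abundant channel transcript in sgControl was KCNIP1, a calcium-binding partner of potassium channels, at a mean of 323 and a range of 172 to 493 (n = 3). CLCN3, an endosomal chloride/proton exchanger, followed at 209 (201 to 221), within the range of KCNIP1. Next came KCNAB2, a cytoplasmic potassium channel subunit, at 153 (141 to 166). KCNH1, the ether-a-go-go potassium channel, and KCNK15, a K2P potassium channel, had 124 and 123, and their ranges overlapped that of KCNAB2. CACNB3, a calcium channel beta subunit, had 113. SCN9A, at 111 (73.2 to 142), was the most abundant of the sodium channel genes, at a level within the range of CACNB3 (93.2 to 129).

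SCN9A encodes the sodium channel best known from pain-sensing neurons. Its signal was 1464, 755 and 1219 in sgControl, 117, 99.7 and 139 with KO#1 and 9.44, 132 and 165 with KO#2. Every knockout library was below every sgControl library, by a group mean of 1146 ± 360.3 against 119 ± 19.5 and 102 ± 81.8 (SD, n = 3). SCN9A fell by 4.17 on the log2 scale with KO#2 (SE 0.861), with a limma adjusted p of 0.0343 (Benjamini-Hochberg). With KO#1 the fold change was -3.22 (SE 0.861) and limma's adjusted p 0.106. The lowest value, 9.44 in KO#2 replicate 1, came from 2 reads. Without that library both limma adjusted p were lower, 9.52e-05 and 0.000461, and the KO#2 fold change was -2.90. With all KO#2 libraries kept, the KO#2 call did not survive the removal of any 1 sgControl library (limma adjusted p 0.0927 to 0.167) or KO#1 library (0.0654 to 0.0709), nor a fit without a filter on low values (0.0570) or on these 2 groups alone (0.134).

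SCN2A, a sodium channel of brain axons, differed from SCN9A in direction. Its signal was 38.9, 46.4 and 21.4 in sgControl, 218, 169 and 141 with KO#1 and 33.6, 167 and 142 with KO#2, so that all libraries but KO#2 replicate 1 exceeded sgControl. With all libraries the fold changes were 2.32 and 1.43, with limma adjusted p of 0.0888 and 0.325. Without KO#2 replicate 1 SCN2A rose with both guides, by 2.32 and 2.15 (limma adjusted p 0.00146 and 0.00639). SCN8A, a sodium channel of the nodes of Ranvier, had 68.8, 62.2 and 49.7 in sgControl, 18.1, 23 and 15.6 with KO#1 and 40.2, 17.9 and 9.44 with KO#2, where KO#2 replicate 1 was again the library nearest to sgControl. Its fold changes of -1.63 and -1.59 were not called with all libraries (limma adjusted p 0.220 and 0.217), but were without KO#2 replicate 1 (0.0140 and 0.0100). The other 7 pore genes and the 4 beta subunit genes of the sodium channels did not reach the test.

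Among calcium channels, CACNA1H was the only 1 of 10 pore genes that was tested. It encodes a T-type channel, which opens near resting potential. Its signal was 518, 189 and 654 in sgControl, 20.1, 12.6 and 35.1 with KO#1 and 217, 18.2 and 75.2 with KO#2. The KO#1 libraries were all below every other library except KO#2 replicate 2, and KO#2 replicate 1 overlapped sgControl. CACNA1H fell by 4.20 on the log2 scale with KO#1 (SE 0.819, limma adjusted p 0.0239). With KO#2 the fold change was -2.55 and limma's adjusted p 0.186; without KO#2 replicate 1 these were -3.39 and 0.0158. The call for CACNA1H with KO#1 needed sgControl replicates 1 and 3 (limma adjusted p 0.134 and 0.136 without them) and each KO#1 library (0.0640 to 0.115).

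CACNG7 belongs to the gamma subunits that, in the brain, also regulate AMPA-type glutamate receptors. It was listed at 0 in all 3 sgControl libraries, at 90.4, 33.6 and 84.8 with KO#1 and at 453, 32.4 and 252 with KO#2, with limma adjusted p of 0.00525 and 0.00181. With 10 in place of 1 added to the signal, its KO#1 call was lost (limma adjusted p 0.0804). CACNG8, its close relative, was also listed at 0 in sgControl and had 12.7, 5.44 and 11.4 with KO#1 and 16.7, 3.56 and 36.4 with KO#2, too low a mean for the test. CACNA1D, an L-type pore subunit, was at 0 in sgControl, at 6.33, 3 and 4.56 with KO#1 and at 2.67, 8.78 and 26.7 with KO#2. Among the untested channel genes, 13 had a highest library of at least 10. CACNG8, CACNA1D and KCNJ2 were the 3 of them whose 6 knockout libraries all lay above sgControl, as did 4.78% of all untested features with a highest library of at least 10. Some of these values rest on few reads. In KO#2 replicate 1 the 2.67 of CACNA1D stood for 1 read and the 16.7 of CACNG8 for 4. The 3.56 of CACNG8 in KO#2 replicate 2 stood for 3 reads.

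The more abundant auxiliary calcium channel genes did not pass the test. CACNA2D1, the alpha2delta subunit bound by gabapentin, had 524, 569.7 and 584 in sgControl, 507, 489 and 461 with KO#1 and 124, 555 and 446 with KO#2. Its low value in KO#2 replicate 1 stood apart from its own group. CACNB3 had 409.6, 295 and 372 in sgControl, 165, 277 and 285 with KO#1 and 798, 206 and 325 with KO#2, with KO#2 replicate 1 the highest of all. The fold changes were -0.20 and -0.84 for CACNA2D1 and -0.59 and 0.08 for CACNB3, and their limma adjusted p ranged from 0.493 to 1. Without KO#2 replicate 1 the KO#2 fold changes were -0.17 for CACNA2D1 and -0.46 for CACNB3, the latter of opposite sign.

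KCNS3, KCNG3 and KCNV1 encode silent subunits, which form no channel alone but join pore-forming potassium channel subunits in mixed channels. KCNS3 had 121, 202 and 66.3 in sgControl, 31.4, 40.9 and 26.2 with KO#1 and 24.6, 42.6 and 23.8 with KO#2, all knockout libraries below all sgControl libraries. In the mean of both guides it fell by 1.90 on the log2 scale (limma adjusted p 0.0391), but was not called with either alone (0.106 and 0.0802). That call was lost without any 1 library other than KO#2 replicates 1 and 2 (limma adjusted p 0.0523 to 0.214), with no filter on low values (0.0719), and after the median of 20 neighbouring genes was removed (0.235, at a fold change of -1.07). KCNG3 had 99.3, 128 and 129.8 in sgControl, 36.3, 58.9 and 41.3 with KO#1 and 37.7, 57.4 and 48.1 with KO#2, without overlap; its limma adjusted p was 0.113 and 0.133 with all libraries, and 0.00966 and 0.0453 without KO#2 replicate 1. With that median removed, the KCNG3 fold changes were -0.48 and -0.14. KCNV1 was listed at 0 in sgControl, at 32.2, 27.2 and 13.7 with KO#1 and at 7.56, 20.1 and 38.6 with KO#2 (limma adjusted p 0.00706 and 0.0104). Its call was lost with KO#1 without KO#1 replicate 1 (0.0570), and with KO#2 without sgControl replicate 1 or 3 (0.0532 and 0.0509) or with only these 2 groups fitted (0.0934). With 10 added to the signal both were lost (0.0537 and 0.0910).

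KCNQ3 encodes a slowly activating potassium channel subunit of the neuronal M-current. It had 38.4, 48.9 and 22.3 in sgControl, 16.2, 37.4 and 32.2 with KO#1 and 31, 104 and 139 with KO#2. It was not called with all libraries (limma adjusted p 0.985 and 0.465), and rose with KO#2 once KO#2 replicate 1 was left out (1.76, limma adjusted p 0.0405).

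KCNH genes are relatives of the ether-a-go-go channel. KCNH4 had 28.7, 27 and 25.4 in sgControl, 10.3, 2.33 and 2.67 with KO#1 and 37.9, 2.56 and 2.33 with KO#2, and KO#2 replicate 1 was above all sgControl libraries. It was not called with all libraries (limma adjusted p 0.321 and 0.428) and was called lower with both guides without that library (0.0153 and 0.0131). The 37.9 in KO#2 replicate 1 came from 7 reads. KO#1 replicates 2 and 3 had 3 and 4 reads, and KO#2 replicates 2 and 3 had 2 and 3. KCNH4 reached a mean of 10 only through sgControl and KO#2 replicate 1. Without that library it therefore had to be lower with both guides. KCNH1, at 1352, 702 and 1193 in sgControl, 683, 441 and 929.7 with KO#1 and 922, 629 and 980.1 with KO#2, overlapped between groups and was not called with either guide (limma adjusted p 0.616 and 0.705).

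KCNN4 encodes the intermediate-conductance potassium channel that is opened by calcium through calmodulin. Its signal was 9.89, 26.3 and 16.4 in sgControl, 299.7, 213 and 243 with KO#1 and 614, 129 and 262 with KO#2, all knockout libraries above all sgControl libraries. KCNN4 rose with both guides, with fold changes of 3.86 (SE 0.562) and 4.0 on the log2 scale and limma adjusted p of 0.00575 and 0.00502. It was called with each guide whichever single library was left out (limma adjusted p of at most 0.0437 and 0.0352). KCNMA1, the large-conductance calcium-activated potassium channel, had 2405, 2168 and 1602 in sgControl, 1716, 1519 and 2297 with KO#1 and 747, 1725 and 2316 with KO#2. Its groups overlapped, and it was not called with either guide (limma adjusted p 1 and 0.617).

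KCNJ8 encodes the pore of an ATP-sensitive potassium channel, which pairs with a sulfonylurea receptor such as ABCC9. Its signal was 0, 0 and 1 in sgControl, 21.1, 12.9 and 17 with KO#1 and 31, 35.6 and 30 with KO#2. KCNJ8 rose with both guides, by fitted differences of 3.81 and 4.72 that depend on the added 1 because sgControl was at or near 0 (limma adjusted p 0.00582 and 0.00181). The KO#1 call was lost without KO#1 replicate 1 (limma adjusted p 0.0530). KCNJ2, the classic strong inward rectifier, was listed at 0 in sgControl, at 37.4, 21.7 and 17 with KO#1 and at 3.56, 1.33 and 3.56 with KO#2, where the values stood for 1, 1 and 5 reads. KCNJ16, a renal subunit of mixed inward rectifiers, had 32.2, 12.9 and 60.9 in sgControl, 87.4, 119 and 126 with KO#1 and 7.56, 64.3 and 22.1 with KO#2. The KO#1 libraries were the 3 highest, but its limma adjusted p was 0.354 and 0.826.

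Many K2P channels carry background potassium current, and no current was measured here. KCNK15 had 481, 221 and 253 in sgControl, 78.6, 25.2 and 64.6 with KO#1 and 533, 89.1 and 106 with KO#2, where KO#2 replicate 1 was the highest of the 9. With KO#1 its fold change was -2.55, with a limma adjusted p of 0.113, or 0.00490 without KO#2 replicate 1. KCNK2, a channel opened by membrane stretch, had 90.1, 113 and 100 in sgControl, 12.9, 46.9 and 21 with KO#1 and 24.6, 108 and 31.6 with KO#2. Its KO#1 fold change of -2.06 had a limma adjusted p of 0.168 with all libraries and of 0.0307 without KO#2 replicate 1. KCNK3, a channel closed by acid, was at 23.3, 23.2 and 50.4 in sgControl, 12.1, 37.4 and 35.3 with KO#1 and 376, 76.6 and 168 with KO#2, where every library exceeded every sgControl library; the fold change of 2.45 had a limma adjusted p of 0.102.

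Of the auxiliary potassium channel genes, none of the 4 tested was called with all libraries by limma at adjusted p under 0.05. KCNAB2 had 1047, 974 and 1148 in sgControl, 558, 532 and 573 with KO#1 and 1573, 585 and 733 with KO#2. It fell with KO#1 in the fit without KO#2 replicate 1 (-0.93, limma adjusted p 0.00692). KCNIP1 had 908, 514 and 1474 in sgControl, 208, 233 and 441 with KO#1 and 465, 130.3 and 395 with KO#2, all knockout libraries below all of sgControl, with limma adjusted p of 0.223 and 0.230. KCNIP3 had 227, 209 and 226 in sgControl, 215, 226 and 236 with KO#1 and 372, 78.6 and 129.7 with KO#2, and was not called with all libraries; without KO#2 replicate 1 it fell with KO#2 (-1.12, limma adjusted p 0.0249).

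Of the CLC genes, 7 of 9 were tested and CLCN7 was the only 1 called with all libraries. CLCN7 encodes the chloride/proton exchanger of lysosomes, also needed for bone resorption by osteoclasts. Its signal was 0.889, 0 and 0 in sgControl, 1.44, 5.44 and 0 with KO#1 and 522, 122 and 157 with KO#2. The sgControl values stood for 1, 0 and 0 reads and the KO#1 values for 2, 7 and 0, so CLCN7 was at trace level in 6 libraries and expressed in the 3 with KO#2. It rose with KO#2, with a fitted difference of 7.45 on the log2(signal + 1) scale that depends on the added 1 (limma adjusted p 0.00137, at most 0.0109 with any library left out). With KO#1 the difference was 1.02 and limma's adjusted p 0.826.

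The direct test of KO#2 against KO#1 gave CLCN7 a difference of 6.43, with a limma adjusted p of 0.0720, over the threshold. Without KO#2 replicate 1 it was 5.80 with a limma adjusted p of 0.0301, and after removal of the trend with GC content it was 5.94 with 0.0165. CLCN7 was the 1 channel gene called between the guides in each of these fits, where 0.1% and 0.0336% of tested features were called. It entered the test only through its KO#2 libraries, so it had to differ between the guides. With all libraries limma called 0 of 48 channel genes (0%) between the guides, and 8 had an unadjusted p under 0.05, 7 higher and 1 lower with KO#2. Over all 12985 tested features 529 did.

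**Figure D3:**
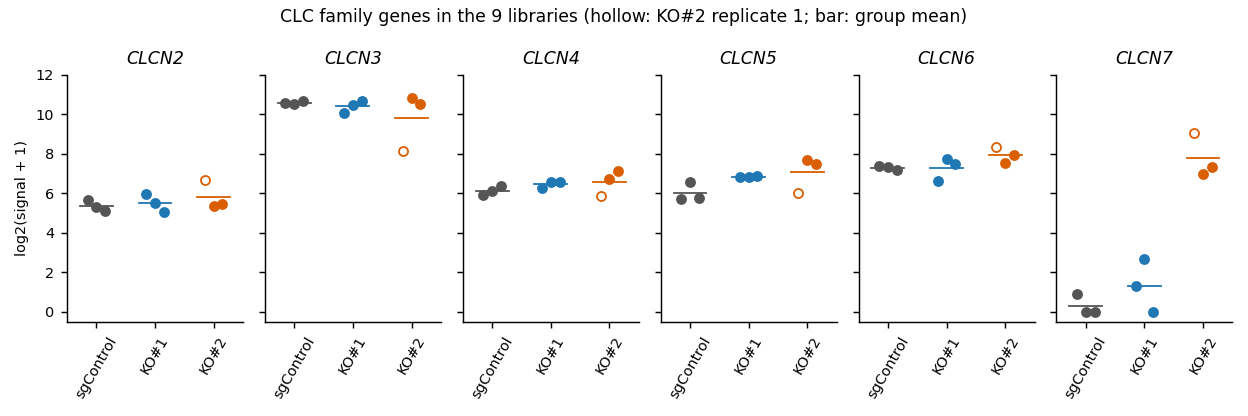
Signal of 6 of the 7 tested CLC genes in each library as log2(signal + 1), with points for libraries, bars for group means and hollow points for KO#2 replicate 1. CLCN7 is at trace level in sgControl and KO#1 libraries and at 122 to 522 in KO#2 libraries, whereas CLCN3 has a signal over 1000 in all libraries but KO#2 replicate 1.

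The other 6 tested CLC genes were expressed in every library. CLCN3 had 1495, 1459 and 1607 in sgControl, 1063, 1402 and 1630 with KO#1 and 275, 1776 and 1449 with KO#2, and overlapped between groups with or without KO#2 replicate 1 (limma adjusted p with all libraries 1 and 0.591). Its KO#2 fold change was -0.77 with all libraries and 0.08 without that one. CLCN5, the endosomal exchanger of proximal tubule cells that is mutated in Dent disease, had 50.2, 93.9 and 52.4 in sgControl, 110, 112 and 117 with KO#1 and 64.3, 207 and 174 with KO#2. Its limma adjusted p with KO#2 was 0.367 with all libraries and 0.0136 without KO#2 replicate 1, at a fold change of 1.58. CLCN6, a late endosomal exchanger, had 164, 160.2 and 144 in sgControl, 95.3, 210.2 and 174 with KO#1 and 322, 183 and 241 with KO#2, and was not called (limma adjusted p 1 and 0.506).

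The deviation of KO#2 replicate 1 followed the GC content of the gene, which ran from 38.0% to 66.0% over the 48 genes. Across them, the Spearman correlation of its difference from the other KO#2 libraries with GC content was 0.786, and 0.839 over the 11919 tested features with known GC content; all points share that library. CACNA1H, at 65.5% GC, was 2.51 higher (log2) there than in the other KO#2 libraries, and SCN2A, at 39.8% GC, 2.17 lower. In sgControl and KO#1 libraries the correlation lay between -0.24 and 0.14 over the 48 genes and between -0.24 and 0.40 over all features with known GC content. With a trend on GC content removed, 15 channel genes were called with KO#1 and 16 with KO#2, against 8.16% and 7.79% of tested features. The part of GC content in single genes was not tested.

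**Figure D4:**
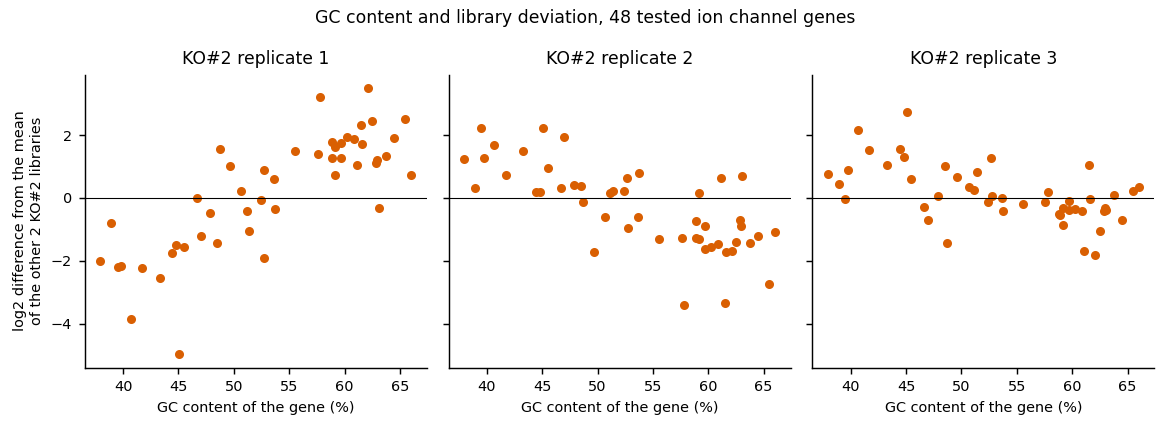
Difference of each KO#2 library from the mean of the other KO#2 libraries (log2, vertical axis) against GC content of the gene in percent (horizontal axis), 1 point for each of the 48 tested channel genes. The points climb from left to right in replicate 1, with a Spearman correlation of 0.786, and fall in replicates 2 and 3, whose reference includes replicate 1.

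Genes that work with these channels were followed in 5 lists chosen with earlier results of these data known. Of 20 tested sodium channel partners and sodium transporters, limma called 1 lower with KO#1 and 0 with KO#2. An unadjusted limma p under 0.05 was reached by 1 with KO#1 and 4 with KO#2. Over all 12985 tested features limma called 303 and 265, and 1467 and 1757 had an unadjusted p under 0.05. The median fold change of the list was -0.20 and -0.23, against 0.03 and -0.01 over all tested features. The called gene, FXYD2, the gamma subunit of the renal sodium pump, had 949, 884 and 1011 in sgControl, 179, 235 and 232 with KO#1 and 687, 470.4 and 315 with KO#2 (KO#1 fold change -2.14, limma adjusted p 0.00864, or 0.0562, 0.0606 and 0.0619 without sgControl replicate 1, sgControl replicate 3 or KO#1 replicate 1). All its KO#1 libraries were below all others. Of 8 tested potassium channel relatives, with medians of -0.12 and 0.17, 1 was called higher with KO#1. This was HCN4, a pacemaker channel, at 1, 0 and 1 in sgControl, 23.7, 15.3 and 18.1 with KO#1 and 30.9, 3.78 and 6.67 with KO#2 (limma adjusted p 0.0372 with KO#1). HCN4 entered the test only through its knockout libraries, so it had to be higher there. The HCN4 call did not hold when any 1 sgControl or KO#1 library, or KO#2 replicate 3, was left out (limma adjusted p 0.0531 to 0.201), with 10 added to the signal (0.122) and with no filter (0.0529).

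Of 18 tested calcium handling genes outside the channel families, limma called CACHD1 lower with KO#1 and ATP2B4 lower with KO#2. These and ITPR1 were called lower in the mean of both. Of all tested features 0.97%, 0.87% and 1.46% were called lower in these comparisons, in that order. The list median was -0.38 with KO#1 and -0.37 with KO#2. CACHD1, an alpha2delta-like protein, had 414, 376 and 346 in sgControl, 124, 148 and 156 with KO#1 and 135, 198 and 197 with KO#2. ATP2B4, a calcium pump of the plasma membrane, had 1798, 1208 and 1005 in sgControl, 669.9, 630.3 and 651 with KO#1 and 370.1, 587 and 477 with KO#2. ITPR1, a calcium release channel of the endoplasmic reticulum, had 554, 288 and 496 in sgControl, 200.4, 185 and 145 with KO#1 and 125, 171 and 200.3 with KO#2. None of the 3 overlapped between sgControl and the knockout cells. Their limma adjusted p were 0.0447, 0.0433 and 0.0473, and no call held when any 1 sgControl or KO#1 library, or KO#2 replicate 3, was left out (limma adjusted p 0.0528 to 0.309). Without KO#2 replicate 1, 6 of the 18 were called lower with KO#1 and 4 with KO#2, where 814 and 538 of all 12985 tested features were. In that fit GEM, a small GTPase that inhibits calcium channels, was called higher in the mean of both guides (log2 fold change 0.90, limma adjusted p 0.0323, against 0.167 with all libraries). GEM had 39.8, 61 and 50.3 in sgControl, 82.8, 96.6 and 102 with KO#1 and 119, 77.7 and 113 with KO#2.

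Of 13 tested chloride channels and partners outside the CLC family, limma called 0 with either guide, and 1 with KO#1 and 0 with KO#2 had an unadjusted p under 0.05; the medians were 0.10 and -0.57, the latter 0.00 without KO#2 replicate 1. Of 14 tested lysosomal and endosomal ion transport genes it called 0, with 1 and 2 at an unadjusted p under 0.05 and medians of -0.02 and 0.21. Over all 12985 tested features, 1467 with KO#1 and 1757 with KO#2 had an unadjusted limma p under 0.05. OSTM1, the beta subunit that CLCN7 needs, was expressed in every library, at 221, 348 and 383 in sgControl, 343, 315 and 369.7 with KO#1 and 52.4, 506 and 334 with KO#2. ATP6V1H, a subunit of the proton pump of lysosomes, had limma adjusted p of 0.263 and 0.243 with all libraries, and rose with both guides without KO#2 replicate 1 (0.0300 and 0.0490).

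Some channel genes lie near, in gene order, other genes that differed between sgControl and knockout libraries. In RefSeq gene order, MYADM lies close to CACNG7 and CACNG8 on chromosome 19. MYADM, a myeloid differentiation marker, was listed at 0 in sgControl, at 2332, 1475 and 1701 with KO#1 and at 1461, 301 and 799 with KO#2 (limma adjusted p 1.03e-05 and 1.50e-05). TRPS1, a zinc finger factor, comes 2 genes after KCNV1 in gene order on chromosome 8, with CSMD3 between them. The distance in bases was not measured. TRPS1 was also listed at 0 in sgControl, at 101, 121 and 169 with KO#1 and at 84.2, 127 and 207 with KO#2. In the sodium channel cluster of chromosome 2, CSRNP3, beside SCN2A, had 3.56, 4.89 and 4.89 in sgControl, 36.1, 127 and 118 with KO#1 and 2.67, 182 and 127 with KO#2. GALNT3, the next gene, had 29.4, 27 and 19.8 in sgControl, 5.44, 6.67 and 8.78 with KO#1 and 0, 11.6 and 6.11 with KO#2. CSRNP3 was above sgControl in every knockout library but KO#2 replicate 1, and without that library its limma adjusted p was 0.000670 and 0.000652. GALNT3 was below sgControl in every knockout library, with limma adjusted p of 0.0209 and 0.0769 in the same fit. MYADM, TRPS1 and CSRNP3 entered the test only through their knockout libraries, so they had to be higher there. GALNT3 entered it only through its sgControl libraries, so it had to be lower in the knockout cells. ABCC9, a partner and the neighbour of KCNJ8 on chromosome 12, was at 0, 0 and 0.778 in sgControl, 3.89, 1.11 and 2.56 with KO#1 and 0, 2.11 and 8 with KO#2, too low for the test.

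**Figure D5:**
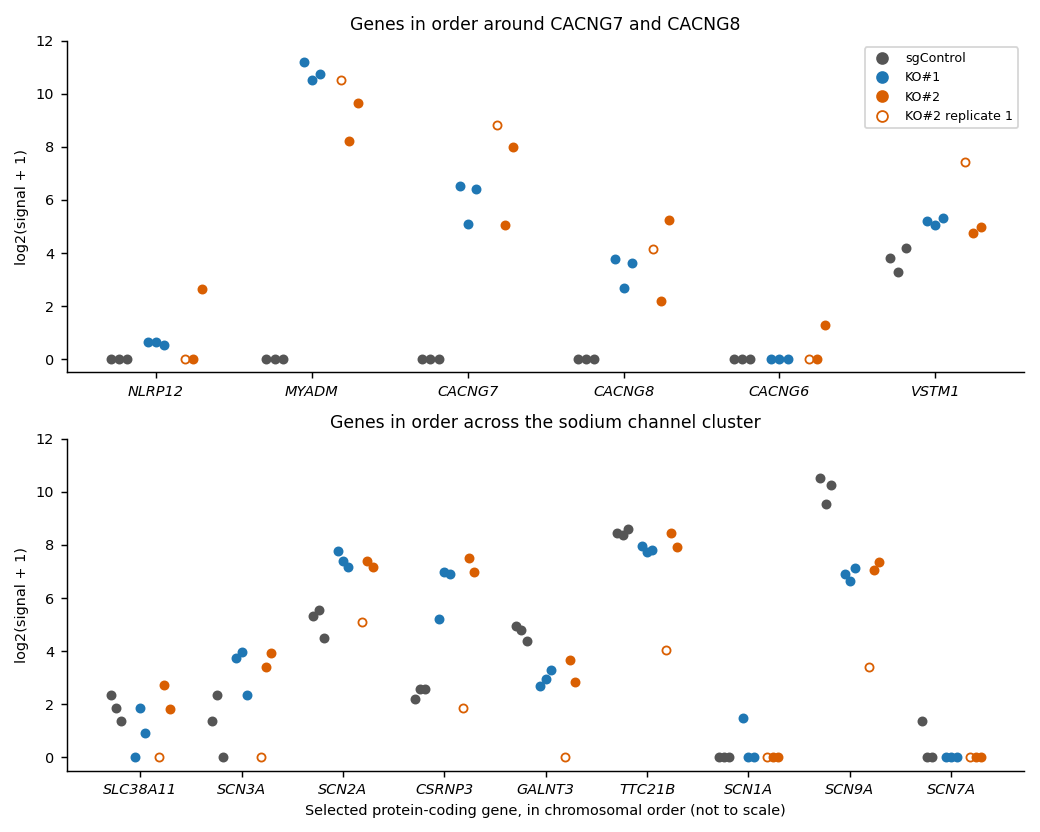
Signal as log2(signal + 1) of selected protein-coding genes in chromosomal order, not to scale, around CACNG7 and CACNG8 (top) and across the sodium channel cluster (bottom), 1 point per library. MYADM, CACNG7 and CACNG8 are at 0 in sgControl and above 0 in all knockout libraries, and SCN2A and SCN9A differ in direction.

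On chromosome 16, both genes directly beside CLCN7, CCDC154 and PTX4, had a signal under 3 in every library. UNKL, C16orf91, TELO2 and IFT140, the nearest genes with a signal, were expressed in every library, and none was called with either guide when all libraries were used. UNKL, for example, had 260.1, 481 and 321 in sgControl, 444, 539 and 349 with KO#1 and 404, 373 and 310.3 with KO#2. With the median of 20 neighbouring genes removed, the KO#2 call of CLCN7 was kept.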

How the data were processed

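RNA from 9 ACHN libraries (sgControl, KO#1 and KO#2, 3 each) was read in pairs on a NextSeq500 after directional NEBNext library preparation, per the labels' protocols. The authors deposited a signal for each of 57773 features, which by the name of the table is a total read count that was quantile-normalized. The sorted values were the same in every library (0 ranks differed), so raw depth is unknown. Low read numbers were read back from the order of equal values. The submitters' processing notes list the build mm10, a mouse build, although the names are human; aligner, counter and strand setting were not found in the labels or the table, so genes that overlap or resemble others are uncertain.

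Features whose mean reached 10 (12985) were tested with limma 3.58.1 (R 4.3.3) on log2(signal + 1): 1 fit of 3 groups, variance trend, two-sided, Benjamini-Hochberg adjusted p under 0.05, with 4 comparisons. SE is moderated and SD is between libraries. The script was tested on simulated data. Exon lengths and GC content came from GENCODE, and gene order and promoters from RefSeq. The labels give no replicate numbers; those used here follow sample order and pair nothing. Alternatives were a pseudocount of 10, no filter, only the groups compared, library weights and each library left out, and, added later, a GC content correction and removal of the median of 20 neighbouring genes. Genes named were those called in any comparison with all libraries or without KO#2 replicate 1, the most abundant and most changed of each family, non-overlapping untested genes, and called partners. Some genes that the rule names are not reported here, but they stay in the counts. The members and lists were chosen with earlier results of these data known.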

Additional observations from a re-analysis of the deposited data

How the results depend on the processing

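No value that was called, with all libraries or in an alternative, changed direction. CACNB3 (0.08 with KO#2) was -0.31 with library weights, -0.26 with GC content correction and -0.33 with neighbouring genes removed. CLCN6 (-0.04 with KO#1) was 0.025 with weights and 0.01 with neighbouring genes removed, and KCNMA1 (-0.49 with KO#2) was 0.085 with weights. Without each library in turn, CACNB3 ran from -0.459 to 0.516, CLCN3 from -1.264 to 0.079 and KCNAB2 from -0.686 to 0.027 with KO#2, and CLCN6 from -0.272 to 0.295 and KCNIP3 from -0.007 to 0.066 with KO#1. Counts of called features are given as all features and, of these, channel genes; with all 9 libraries they were 303 and 8 (KO#1), 265 and 7 (KO#2), 403 and 10 (mean of both), and 0 and 0 (KO#2 against KO#1). Without each library in turn they ran from 96 to 1592 and 3 to 17, from 95 to 1042 and 4 to 18, from 155 to 1897 and 5 to 21, and from 0 to 13 and 0 to 1, in that order. All the highest came without KO#2 replicate 1, and leaving out KO#2 replicate 2 or 3 kept every count within 1.5 times. With library weights, where KO#2 replicate 1 had 0.0547 and the rest 0.508 to 2.52, the counts were 2765 and 23, 1293 and 21, 2808 and 22, and 24 and 1. With only the groups compared they were 1883 and 20 for KO#1 and 79 and 4 for KO#2. GC content correction, on the 91.8% of tested features with known GC content, gave 972 and 15, 929 and 16, 1302 and 19, and 4 and 1. A pseudocount of 10 gave 4 and 1 between the guides, and removal of the neighbouring genes' median gave 12 channel genes with KO#2. No filter kept every count within 1.5 times. No paired analysis was possible because the labels give no replicate numbers. The cause of these shifts was not tested. Intervals from reads could not be had, since raw depth is unknown.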

Other observations

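Of 6 fibroblast markers, COL1A1, PDGFRB and THY1 had a signal of at least 10 in every library, and COL1A2, DCN and LUM were at 0 in every library. The summed signal of the list was 963 to 1148 in sgControl, 256 to 561 with KO#1 and 252 to 639 with KO#2. THY1 made up most of it, at 893, 1030 and 869 in sgControl and 167, 434 and 302 with KO#1. COL1A1 was at 29.4, 66.8 and 27.8 in sgControl and at 54.8, 102 and 96 with KO#1, where the groups overlapped. Striated muscle markers summed to 16.9 to 20 in sgControl, 6.89 to 17.7 with KO#1 and 4.33 to 13.1 with KO#2. Leukocyte markers summed to 14.6 to 38.4, 30.3 to 59.6 and 23.1 to 222, where 222 was KO#2 replicate 1, with 119 from ITGAM and 85.9 from CD68. Endothelial markers summed to 11.8 to 25.1, 2.89 to 5.22 and 1.56 to 15.4. The part of these shifts in the channel results was not tested.

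Among the partners that were not called with all libraries but were without KO#2 replicate 1, NEDD4, a ubiquitin ligase, was higher with both guides (limma adjusted p 0.0343 and 0.0357), and SLC12A7, a potassium-chloride cotransporter, was lower with both (0.00798 and 0.0464). ITPR2, a calcium release channel, was lower with both (0.00771 and 0.00887). Its signal was 1647, 1270 and 1410 in sgControl, 728, 780.3 and 809 with KO#1, and 197, 700.4 and 673 with KO#2.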
